A study of Nicotiana with 12 samples.

Results

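The stress-related transcription factor genes abz1, AREB1, CBF1, DREB3 and WRKY2 were followed in the leaves of tobacco (Nicotiana) plants. They were chosen by symbol: every probe set that the probe annotation names abz1, AREB1, CBF1, DREB3 or WRKY2 was taken. This gave 5 probe sets, 1 for each gene, of 10101 tested, of which 909 carry a gene symbol. The probe sets are Les.5916.1.S1_at for abz1, Les.4524.1.S1_at for AREB1, Les.124.1.S1_at for CBF1, Les.3379.1.S1_at for DREB3 and Les.3512.1.S1_at for WRKY2. The choice was made with these very measurements known, so the levels and differences of the 5 genes are a description and carry no test of their own.

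Plant transcription factors of several families take part in the response to drying. AREB factors are basic leucine zipper (bZIP) proteins that bind abscisic-acid-responsive elements, and abscisic acid is the hormone that closes stomata when water is short. CBF and DREB factors belong to the AP2/ERF family and bind the dehydration-responsive or C-repeat element, CBF1 being best known from the cold response. WRKY factors bind the W-box and are known from defence and abiotic stress, and abz1 is a tomato bZIP gene named for its induction by low oxygen.

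The study measured leaf RNA of 4 groups with 3 biological replicates each, 12 arrays in all. The groups were PSARK::IPT plants given 300 mL of water per pot and day (stressed), PSARK::IPT plants given 1000 mL (watered), wild-type (WT) plants given 300 mL (stressed) and WT plants given 1000 mL (watered). The treatment lasted 45 days from transplanting of plants 3 weeks old to the greenhouse, and all plants were about 10 weeks old at sampling. PSARK::IPT plants carry IPT (isopentenyltransferase, which makes cytokinin) under the promoter of a senescence-associated receptor kinase, so the transgene is tied to the cells and times in which that promoter is active. The labels state neither how many transgenic lines were used nor whether plants were pooled.

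The labelled tobacco RNA was read on an array built for another species, the Affymetrix Tomato Genome Array, with probes designed on tomato sequences. A value therefore rests on how well tobacco transcripts bind tomato probes, and a probe set may read several related tobacco genes. Values are log2 intensities on the scale of the deposited table, and since each probe set binds with its own strength, levels are compared between groups and not between genes. Differences between groups and their standard errors (SE) came from limma, a linear model fitted to all 10101 probe sets, and a difference is said to pass where its Benjamini-Hochberg adjusted p over all of them was under 0.05. Array medians lay between 3.38 and 3.45. Correlations between replicates lay between 0.982 and 0.992 over all probe sets, and no array was a copy of another. Of the tissue markers, 8 leaf probe sets read 5.77 to 13.03 and 5 fruit, flower and pollen probe sets 1.74 to 3.32, below every array median. As each probe set binds with its own strength, these levels alone do not show which tissue was read.

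The watered WT arrays stood apart in the level of the labelling controls. Poly-A control RNAs are bacterial transcripts added to each RNA sample before labelling, with separate probe sets for their 3′ and 5′ ends. Averaged over 12 such probe sets, their level was 8.58 ± 0.09 in stressed PSARK::IPT, 8.32 ± 0.14 in watered PSARK::IPT, 8.04 ± 0.41 in stressed WT and 10.06 ± 0.05 in watered WT (mean log2 ± SD, n = 3 each). The 3′ minus 5′ difference of the same controls was 3.42 ± 0.14 in stressed PSARK::IPT, 2.67 ± 0.45 in watered PSARK::IPT, 4.36 ± 0.94 in stressed WT and 2.24 ± 0.07 in watered WT. Within stressed WT it was 3.93, 5.43 and 3.70 in replicates 1, 2 and 3, so replicate 2 was the array farthest from the others. These values moved with genotype and water. Their part in the results was not tested beyond the fit with the 3′ minus 5′ difference as a covariate. For named genes, the values of that fit are given beside the calls that it ends. The 3′ minus 5′ difference of the plants' own gapdh transcript was 4.65 ± 0.15 in stressed and 4.09 ± 0.17 in watered PSARK::IPT. In WT it was 4.52 ± 0.15 under stress and 3.81 ± 0.29 when watered, so it was higher under stress in both genotypes. Means for actin were -2.08, -2.89, -1.99 and -2.92 in the same order, and for ubiquitin -1.65, -1.97, -1.28 and -1.39. No fit used these plant transcripts as a covariate, and their part was not tested. For stress in WT the poly-A covariate also widened the standard errors of the 5 genes, to 0.20 to 0.31 against 0.11 to 0.15 without it. Its slope is fitted within groups, where the control varied mostly in stressed WT (SD 0.94, against 0.07 to 0.45 in the other groups). Stressed WT replicate 2 therefore weighs heavily in that fit. A call kept or lost with the covariate is thus no general check of labelling.

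Among the bZIP genes, abz1 overlapped in 3 groups and stood higher in stressed WT leaves. In PSARK::IPT leaves its log2 level was 3.75, 4.12 and 3.76 under stress, against 3.87, 3.89 and 4.36 when watered. In WT leaves it was 5.49, 5.21 and 5.56 under stress, against 4.10, 4.14 and 3.93 when watered. Every stressed WT array lay above each of the other 9 arrays, and the other groups overlapped one another.

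The mean of abz1 was 3.87 ± 0.21 in stressed PSARK::IPT, 4.04 ± 0.28 in watered PSARK::IPT, 5.42 ± 0.19 in stressed WT and 4.06 ± 0.11 in watered WT (SD, n = 3 each). Stressed minus watered was -0.16 (SE 0.15) in PSARK::IPT, within the spread of the replicates. In WT abz1 was higher under stress by 1.36 (SE 0.15, 95% interval 1.04 to 1.69), a 2.57-fold difference of intensity. Between stressed plants abz1 was 2.92-fold lower in PSARK::IPT (log2 difference -1.55, SE 0.15, 95% interval -1.87 to -1.22), whereas between watered plants the difference was -0.02. The stress effect in PSARK::IPT minus that in WT was -1.53 (SE 0.22, 95% interval -1.99 to -1.07). By size, the abz1 difference stood at rank 77 of all 10101 probe sets for stress in WT, 109 between stressed genotypes and 36 for the difference of the stress effects. With the poly-A 3′ minus 5′ difference as a covariate these 3 differences were 1.54, -1.62 and -1.64, and all still passed. With the same covariate taken over 36 poly-A probe sets the stress difference in WT was 1.57 (SE 0.34) and did not pass. In a bulk leaf sample, fewer cells of a type that carries a transcript and less of it per cell cannot be told apart, for abz1 and for every gene below.

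AREB1, the bZIP factor of the abscisic acid response, was lower in PSARK::IPT than in WT under stress, with the lowest values of all in stressed PSARK::IPT. Its log2 level in PSARK::IPT was 3.98, 4.14 and 3.95 under stress, against 4.60, 4.17 and 4.24 when watered. WT leaves gave 4.36, 4.75 and 4.67 under stress, against 4.19, 4.42 and 4.42 when watered. All stressed PSARK::IPT arrays lay below all arrays of the other groups, while the 2 WT groups overlapped.

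AREB1 averaged 4.02 ± 0.10 in stressed PSARK::IPT, 4.34 ± 0.23 in watered PSARK::IPT, 4.59 ± 0.21 in stressed WT and 4.34 ± 0.14 in watered WT (SD, n = 3 each). Between stressed plants it was 1.49-fold lower in PSARK::IPT (log2 difference -0.57, SE 0.14, 95% interval -0.87 to -0.27), and between watered plants the difference was -0.01. The stress difference was -0.32 (SE 0.14, 95% interval -0.62 to -0.02) in PSARK::IPT and 0.25 (SE 0.14, 95% interval -0.05 to 0.55) in WT, and neither passed the threshold. The stress effect in PSARK::IPT minus that in WT was -0.57 (SE 0.20), which did not pass either. With the poly-A covariate the difference between stressed genotypes was -0.47 (SE 0.17) and no longer passed, the stress difference in WT was 0.01 (SE 0.28), and the difference of the stress effects was -0.41 (SE 0.25).

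Of the AP2/ERF factors, CBF1 lay in a narrow band in PSARK::IPT and was spread wider in WT. Its log2 level in PSARK::IPT was 3.69, 3.67 and 3.69 under stress, against 3.73, 3.69 and 3.57 when watered. WT leaves gave 4.09, 4.15 and 3.59 under stress, against 3.46, 3.24 and 3.71 when watered. In WT, 2 stressed arrays were above all others, but replicate 3 of both WT groups broke the separation, and all neighbouring groups overlapped.

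CBF1 averaged 3.68 ± 0.01 in stressed PSARK::IPT, 3.66 ± 0.08 in watered PSARK::IPT, 3.95 ± 0.31 in stressed WT and 3.47 ± 0.24 in watered WT (SD, n = 3 each). The stress difference was 0.02 (SE 0.15) in PSARK::IPT and 0.48 (SE 0.15, 95% interval 0.15 to 0.80) in WT, and neither passed. The WT difference was 0.60 without watered WT replicate 3 and 0.65 without stressed WT replicate 3, and passed in both cases. With the poly-A covariate it was 0.12 (SE 0.29, 95% interval -0.50 to 0.74), and the stress difference in PSARK::IPT was -0.11 (SE 0.17). Between genotypes, PSARK::IPT minus WT, CBF1 differed by -0.26 under stress and 0.19 when watered, neither past the threshold, and the stress effect in PSARK::IPT minus that in WT was -0.46 (SE 0.21), or -0.23 (SE 0.26) with the poly-A covariate, and did not pass. Without stressed WT replicate 3 the difference under stress was -0.44 and passed.

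DREB3 was the gene of the 5 whose highest group was watered PSARK::IPT. Its log2 level in PSARK::IPT was 5.02, 5.05 and 5.01 under stress, against 5.47, 5.23 and 5.40 when watered. The WT levels were 4.99, 5.11 and 4.90 under stress, against 4.89, 4.92 and 4.88 when watered. Watered PSARK::IPT lay above all other arrays, and stressed PSARK::IPT and stressed WT overlapped.

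DREB3 averaged 5.03 ± 0.02 in stressed PSARK::IPT, 5.36 ± 0.12 in watered PSARK::IPT, 5.0 ± 0.10 in stressed WT and 4.89 ± 0.02 in watered WT (SD, n = 3 each). Between watered plants it was higher in PSARK::IPT by 0.47 (SE 0.11, 95% interval 0.24 to 0.70), 1.38-fold. Between stressed plants the difference was 0.03. The stress difference was -0.33 (SE 0.11, 95% interval -0.57 to -0.10) in PSARK::IPT and 0.10 (SE 0.11) in WT, and neither passed. The stress effect in PSARK::IPT minus that in WT was -0.44 (SE 0.16) and did not pass. With the poly-A covariate it was -0.28 (SE 0.18), and the stress difference in WT turned to -0.15 (SE 0.20). The difference between watered genotypes was 0.42 with that covariate and still passed.

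WRKY2 was lower in PSARK::IPT than in WT under stress, by a call that rested on single arrays. Its log2 level in PSARK::IPT was 3.16, 3.36 and 3.31 under stress, against 3.57, 3.52 and 3.70 when watered. The WT levels were 3.51, 4.12 and 3.95 under stress, against 3.25, 3.57 and 3.48 when watered. Stressed PSARK::IPT lay wholly below watered PSARK::IPT and below stressed WT, and it overlapped watered WT.

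WRKY2 averaged 3.27 ± 0.10 in stressed PSARK::IPT, 3.60 ± 0.09 in watered PSARK::IPT, 3.86 ± 0.32 in stressed WT and 3.43 ± 0.16 in watered WT (SD, n = 3 each). Between stressed plants it was 1.5-fold lower in PSARK::IPT (log2 difference -0.59, SE 0.15, 95% interval -0.90 to -0.27), and between watered plants the difference was 0.16. That call was lost without stressed WT replicate 2 (-0.45), without stressed PSARK::IPT replicate 1 (-0.53) and with the poly-A covariate (-0.41, SE 0.17). The stress difference was -0.32 (SE 0.15, 95% interval -0.64 to -0.01) in PSARK::IPT and 0.43 (SE 0.15, 95% interval 0.11 to 0.74) in WT, and neither passed. Without stressed WT replicate 1, the array with the lowest WRKY2 of its group, the WT difference was 0.60 and passed. With the poly-A covariate it was 0.02 (SE 0.28, 95% interval -0.57 to 0.61). The stress effect in PSARK::IPT minus that in WT was -0.75 (SE 0.21, 95% interval -1.20 to -0.31), which did not pass, and -0.93 without stressed WT replicate 1, which did. The covariate gave -0.49 (SE 0.25).

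**Figure D1:**
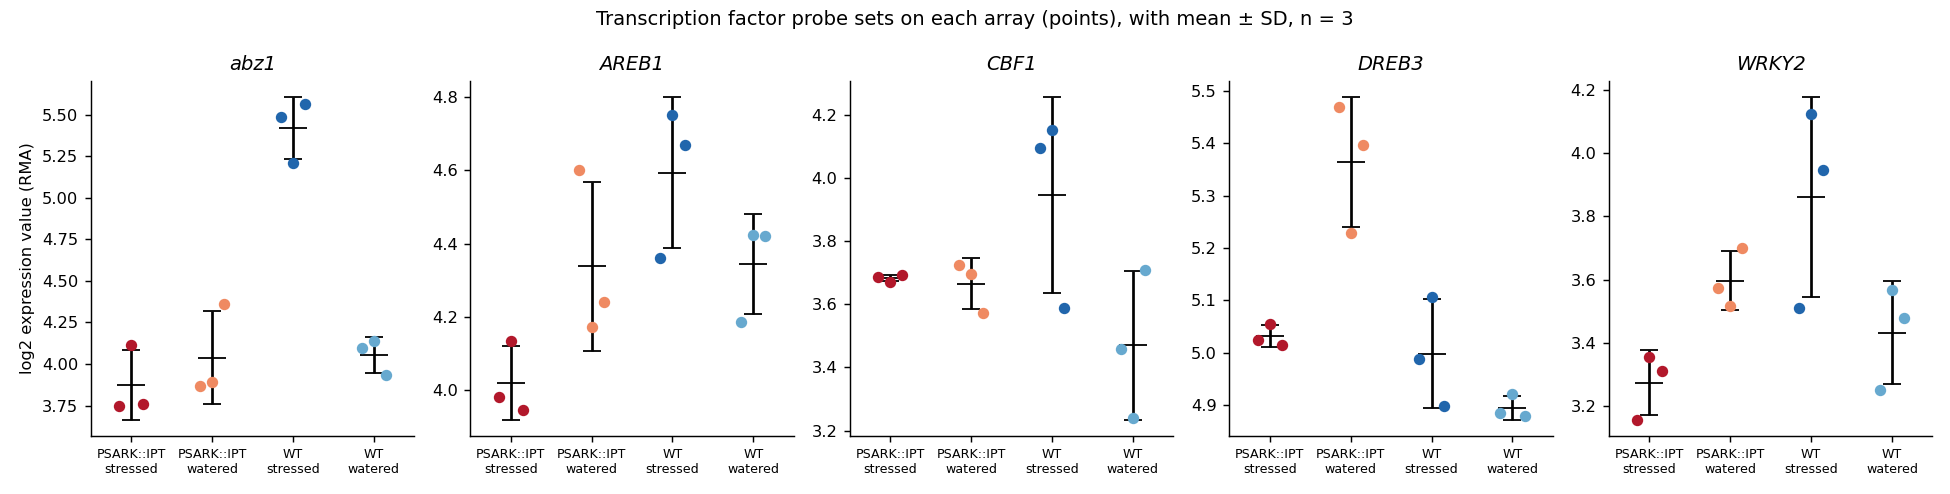
Log2 level of the 5 genes on each of the 12 arrays (points, 1 panel per gene with its own axis), with the mean ± SD of each group of 3 as bars. The stressed WT arrays of abz1, at 5.21 to 5.56, sit above its other 9 arrays, and the watered PSARK::IPT arrays of DREB3, at 5.23 to 5.47, sit above its others.

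The 5 genes did not share a single order of the groups. Over the 4 group means the span was 1.55 for abz1, 0.57 for AREB1, 0.48 for CBF1, 0.47 for DREB3 and 0.59 for WRKY2. abz1 and AREB1 ran from stressed WT through watered WT and watered PSARK::IPT to stressed PSARK::IPT, but the break between neighbours that did not overlap lay below stressed WT for abz1 and above stressed PSARK::IPT for AREB1. CBF1 ran from stressed WT through stressed and watered PSARK::IPT to watered WT, with every pair of neighbours overlapping. WRKY2 ran from stressed WT through watered PSARK::IPT and watered WT to stressed PSARK::IPT, again with every pair of neighbours overlapping. DREB3 ran from watered PSARK::IPT, apart from the rest, through stressed PSARK::IPT and stressed WT to watered WT.

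Stressed WT held the highest mean of 4 of the 5 genes, DREB3 being the exception, as it did for 30.7% of all probe sets. Stressed PSARK::IPT held the lowest mean of abz1, AREB1 and WRKY2, against 22.5% of all probe sets. Watered WT held the lowest mean of CBF1 and DREB3, against 30.4%, and watered PSARK::IPT the highest mean of DREB3, against 23.8%. The mean was lower under stress in PSARK::IPT and higher under stress in WT for 4 of the 5 genes, CBF1 being the exception, against 24.2% of all probe sets. Since the genes were chosen with these values known, nothing is read from those shares. Stressed WT replicate 2, the array with the largest poly-A 3′ minus 5′ difference, had the highest AREB1, CBF1, DREB3 and WRKY2 and the lowest abz1 of its group. Beyond the values given without it and with the covariate, its part in their means was not tested.

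**Figure D2:**
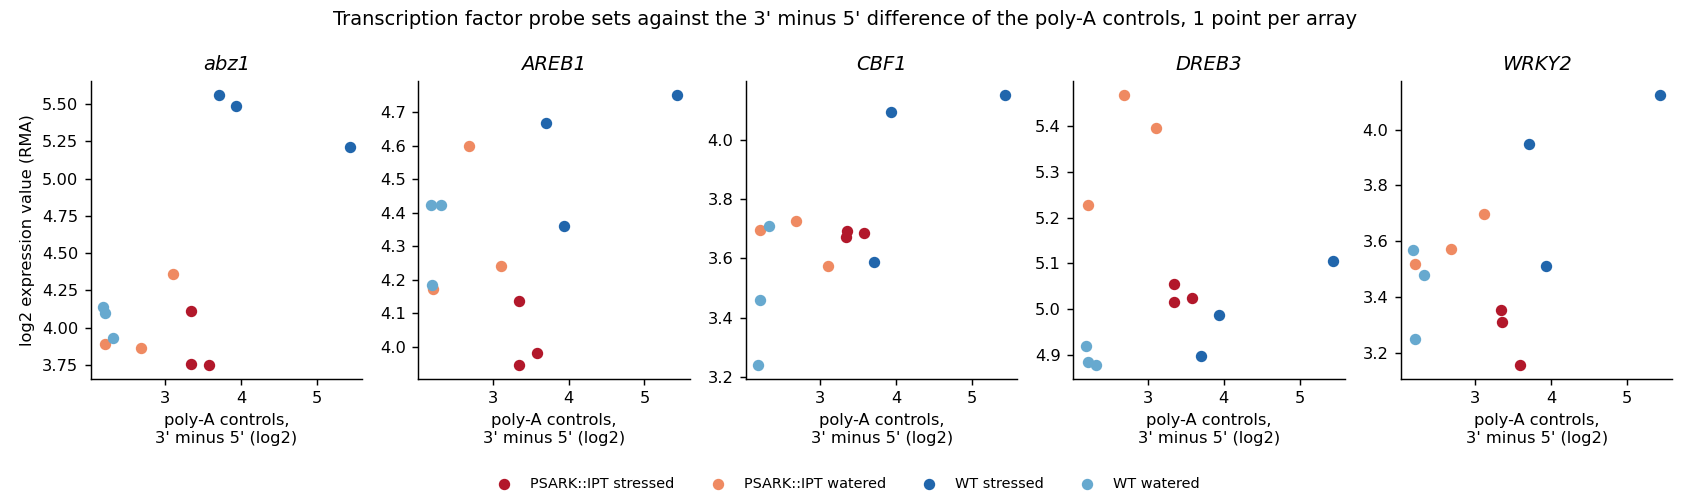
Log2 level of the 5 genes (vertical axis, 1 panel per gene with its own scale) against the 3′ minus 5′ log2 difference of the poly-A controls, 1 point per array and 1 colour per group. Stressed WT replicate 2 stands at the right end at 5.43, with the highest AREB1, CBF1 and WRKY2 of all arrays, and the watered WT arrays stand at the left end at 2.18 to 2.32.

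For stress in PSARK::IPT, 0 of the 5 genes passed in limma and 3 had an unadjusted p under 0.05, where 1.36% of all probe sets passed and 14.2% had an unadjusted p under 0.05. AREB1, DREB3 and WRKY2 had stressed arrays wholly below the watered ones in PSARK::IPT, as did 11.4% of all probe sets. For stress in WT, abz1 passed, higher, while 11.3% of all probe sets passed in either direction and 5.63% were higher. It was the one gene of the 5 whose stressed WT arrays lay wholly above the watered ones, as did 16% of all probe sets. Between stressed genotypes abz1, AREB1 and WRKY2 passed, all lower in PSARK::IPT, against 16.7% of all probe sets in either direction and 8.42% lower. The same 3 genes had PSARK::IPT arrays wholly below the WT ones, against 15.4% of all probe sets. Between watered genotypes DREB3 passed, higher in PSARK::IPT, against 13.8% of all probe sets in either direction and 7.7% higher. It was also the one gene with watered PSARK::IPT wholly above watered WT, against 17.4% of all probe sets. For the difference of the stress effects abz1 passed, lower, against 1.9% of all probe sets in either direction and 0.802% lower. Each group of arrays enters more than one of these comparisons, so the comparisons are not independent of each other.

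**Figure D3:**
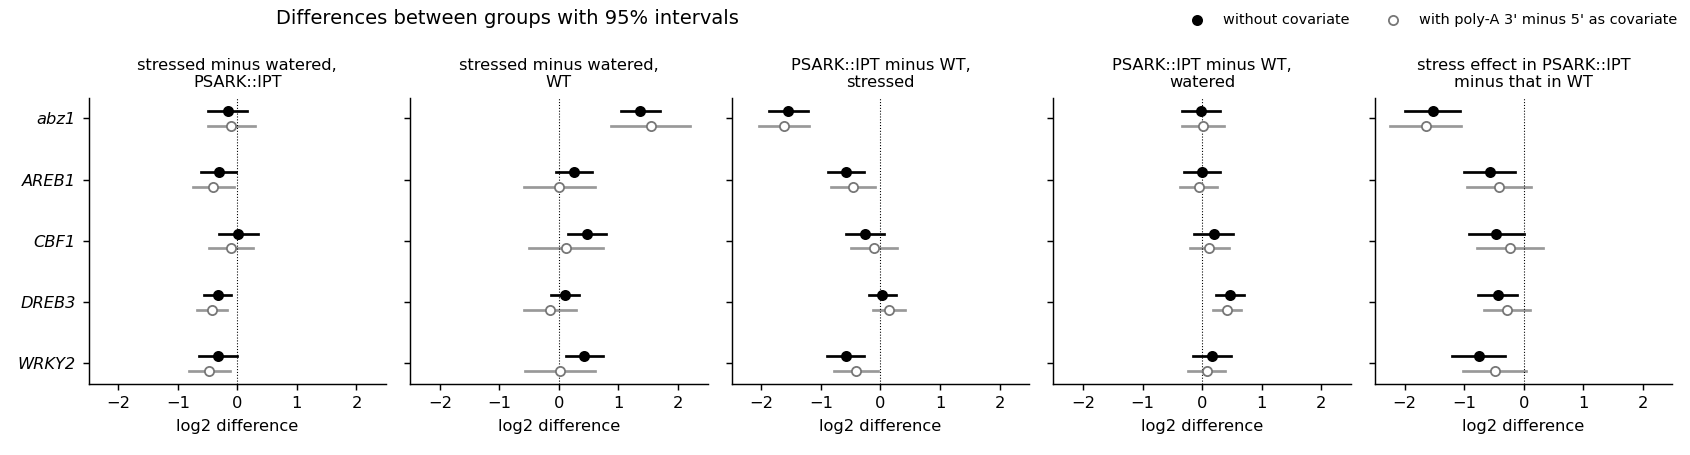
Log2 differences of the 5 genes in the 5 comparisons, stressed minus watered or PSARK::IPT minus WT, with 95% intervals from limma, filled for the fit without a covariate and open for the fit with the poly-A 3′ minus 5′ difference. abz1 stands away from 0 for stress in WT at 1.36, between stressed genotypes at -1.55 and in the difference of the stress effects at -1.53.

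The leaf markers moved beside the genotype differences. Of 8 leaf probe sets, 7 were higher in PSARK::IPT than in WT under stress, with a median log2 difference of 0.58, and 4 were higher when watered. Of all 10101 probe sets, 832 were higher under stress and 778 when watered. In WT, 1 of the 8 passed for stress, lower, where 573 of all probe sets were lower. The leaf differences there ran from -0.63 to 0.10 with a median of -0.29, against 0.04 over all probe sets. An unadjusted limma p under 0.05 was found for 5 of the 8, against 25% of all probe sets. Their part in the differences of the 5 genes was not tested.

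Relatives of the 5 genes were taken by symbol from the same array, to show how the rest of each family read. The AP2/ERF list held 12 probe sets of 11 genes besides CBF1 and DREB3, and its members moved both ways. For stress in WT 2 rose and 2 fell, and the median difference was -0.01, against 0.04 over all probe sets. JERF1, a jasmonate and ethylene response factor, was higher under stress in WT by 0.74 (SE 0.16, limma adjusted p = 0.0064). PTI4, an ethylene response factor that binds the resistance kinase Pto, fell by 0.62 (SE 0.16, limma adjusted p = 0.0210). JERF3 fell by 0.47 (SE 0.13, limma adjusted p = 0.0232), and ERF4 was the other gene that passed, at 0.64. With the poly-A covariate the differences were 0.52 (SE 0.32) for JERF1, -0.47 (SE 0.33) for PTI4, -0.37 (SE 0.25) for JERF3 and 0.53 (SE 0.40) for ERF4, and none of the 4 passed. PTI4 and JERF3 did not pass without watered WT replicate 2 or 3 or stressed WT replicate 2 or 3. The ERF4 call was lost when any of 7 of the 12 arrays was left out, and JERF1 passed throughout. DREB1 and DREB2, of the same subgroup as DREB3, differed by 0.27 and -0.01 and did not pass.

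JERF1 was lower in PSARK::IPT than in WT with and without stress. Its log2 level in PSARK::IPT was 5.52, 5.60 and 5.63 under stress, against 5.31, 5.35 and 5.39 when watered. WT leaves gave 6.42, 7.07 and 7.17 under stress, against 6.06, 6.12 and 6.27 when watered. All PSARK::IPT arrays lay below all WT arrays. The log2 difference was -1.30 under stress (SE 0.16, limma adjusted p = 1.9e-05) and -0.80 when watered (SE 0.16, limma adjusted p = 0.0024).

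PTI4 went the other way between stressed genotypes. Its log2 level in PSARK::IPT was 4.21, 3.90 and 4.22 under stress, against 3.53, 4.03 and 3.51 when watered. The WT levels were 3.45, 3.20 and 2.96 under stress, against 3.69, 3.82 and 3.95 when watered. The stressed groups did not overlap, and PTI4 was higher in PSARK::IPT by 0.90 (SE 0.16, limma adjusted p = 0.00078). Its stress effect in PSARK::IPT minus that in WT was 1.04 (SE 0.23, limma adjusted p = 0.0244), a call lost when any of 7 of the 12 arrays was left out, with an adjusted p of up to 0.0836. That difference was 0.95 (SE 0.30) with the poly-A covariate and did not pass. JERF3 was also higher in stressed PSARK::IPT than in stressed WT, by 0.39 (limma adjusted p = 0.0423), and ERF4 in watered PSARK::IPT than in watered WT, by 0.60 (limma adjusted p = 0.0462). Both of these last calls were lost when any of 9 of the 12 arrays was left out, and with the poly-A covariate, at 0.35 (SE 0.16) for JERF3 and 0.58 (SE 0.21) for ERF4.

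The bZIP list held 7 probe sets of 6 genes besides abz1 and AREB1, 1 of which, TGAS118, a gibberellin-stimulated gene, matched by its letters only and passed in no comparison. For stress in WT 1 of the 7 passed: a probe set of GBF4, a G-box-binding bZIP factor, was higher by 0.47 (SE 0.12, limma adjusted p = 0.0148), and the second GBF4 probe set differed by -0.01. The call was lost without watered WT replicate 2 or stressed WT replicate 3, and with the poly-A covariate, where the difference was 0.62 with a wider error (SE 0.22). In the other 4 comparisons 0 of the 7 passed in limma, and 0 or 1 had an unadjusted p under 0.05, against 14.2% to 27.4% of all probe sets. Between stressed genotypes, where abz1 and AREB1 were lower in PSARK::IPT, the 6 bZIP probe sets without TGAS118 differed by -0.34 to 0.23 with a median of 0.01, and TGAS118 by 0.65.

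The WRKY list held 3 probe sets besides WRKY2, and 0 passed in limma in any of the 5 comparisons, with 1 at an unadjusted p under 0.05 for stress in WT, against 25% of all probe sets, and 0 in the others. Between stressed genotypes they differed by -0.02 to 0.14, against -0.59 for WRKY2. For stress in PSARK::IPT 0 of the 22 probe sets of the AP2/ERF, bZIP and WRKY lists passed in limma, and 3 had an unadjusted p under 0.05, beside 14.2% of all probe sets.

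**Figure D4:**
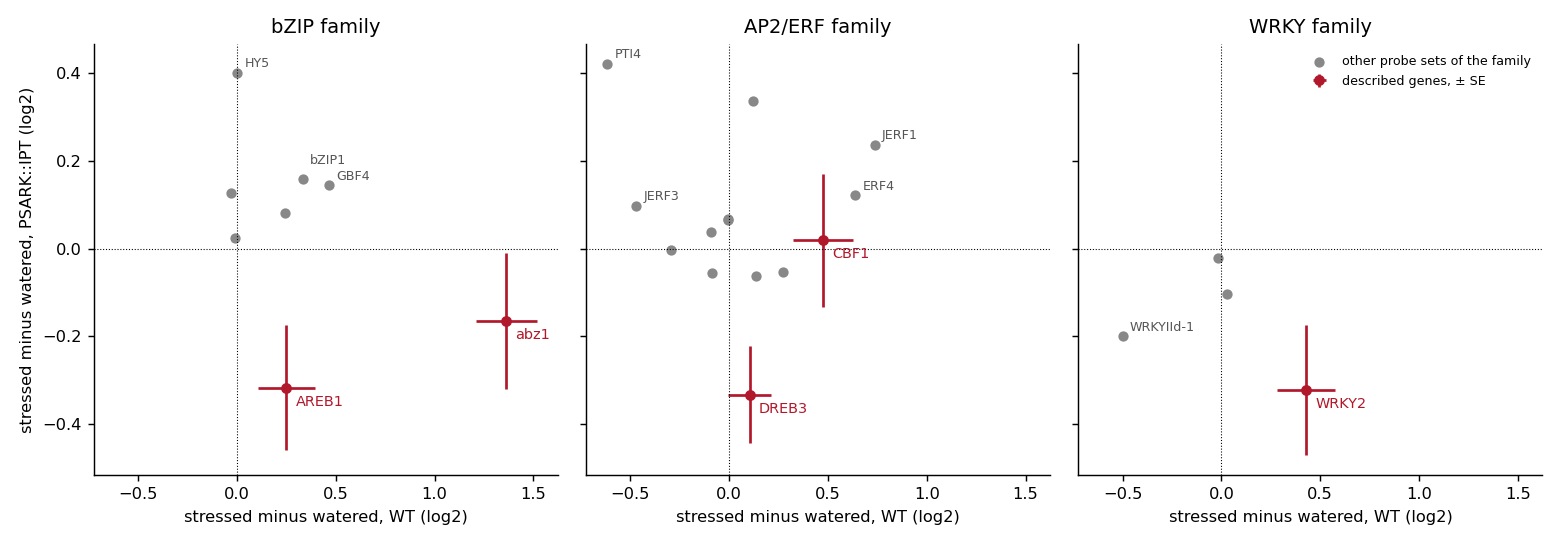
Stressed minus watered log2 difference in PSARK::IPT (vertical) against that in WT (horizontal) for the bZIP, AP2/ERF and WRKY probe sets, TGAS118 left out, with the 5 genes in red with SE bars and their relatives in grey. abz1 lies farthest right at 1.36, while AREB1, DREB3 and WRKY2 lie lowest in their panels at -0.32, -0.33 and -0.32.

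Dehydration-responsive genes, of the kind that AREB and DREB factors are known to activate, differed between the genotypes. Of 6 such probe sets, 5 were lower in PSARK::IPT than in WT under stress and 4 when watered, while for stress itself 0 passed in PSARK::IPT and 2, both higher, in WT. Of all 10101 probe sets, 850 were lower in PSARK::IPT under stress, 618 were lower when watered and 569 were higher for stress in WT. TAS14, a dehydrin, was higher under stress in WT by 0.73 (SE 0.15, limma adjusted p = 0.0039), and with the poly-A covariate 0.28 (SE 0.27), which did not pass. Its PSARK::IPT minus WT difference was -3.16 under stress and -2.59 when watered, lower in both (SE 0.15 each). ER5, related to the late embryogenesis abundant proteins, was higher under stress in WT by 0.54 (limma adjusted p = 0.0434), a call lost when any of 11 of the 12 arrays was left out and with the poly-A covariate, at 0.13 (SE 0.31). LE16 and TSW12, lipid transfer proteins, were lower in PSARK::IPT under both supplies, with differences of -2.43 for LE16 and -1.40 for TSW12 under stress and of -1.52 for LE16 and -1.31 for TSW12 when watered. AREB1 differed between genotypes by -0.57 under stress and -0.01 when watered. Whether AREB1 or DREB3 acts on any of these genes was not tested.

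Of the low-oxygen list, which goes with the name of abz1, 0 of 3 probe sets passed for stress in PSARK::IPT and 1 of 3 in WT. Of all probe sets, 1.36% and 11.3% passed in these comparisons. The sucrose synthase gene sus3 was higher under stress in WT by 0.49 (limma adjusted p = 0.0485), a call lost when any of 10 of the 12 arrays was left out and with the poly-A covariate, at 0.01 (SE 0.27). Its PSARK::IPT minus WT difference was -1.35 under stress and -0.52 when watered, lower in both, and the watered call was lost when any of 4 arrays was left out. ADH2, an alcohol dehydrogenase, differed by 0.09 for stress in WT and did not pass. Between genotypes, PSARK::IPT minus WT, ADH2 differed by -0.14 under stress and 0.23 when watered. GLB2, the remaining probe set of the list, differed by 0.31 under stress and 0.30 when watered. Neither ADH2 nor GLB2 passed between genotypes. Of 5 abscisic acid synthesis and signalling probe sets, 0 passed in limma in any comparison, where 1.36% to 16.7% of all probe sets passed. At most 1 had an unadjusted limma p under 0.05, against 14.2% to 27.4% of all probe sets. With 5 probe sets such counts do not set the list apart from the rest. Differences ran from -0.24 to 0.37 between stressed genotypes and from -0.37 to 0.19 for stress in WT.

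abz1 was the one gene of the 5 whose group means spanned at least 1 log2 unit, and the named probe sets with the most similar profile were sought for it. Likeness was the root mean square difference of the 4 group means after centring each profile, over 908 named probe sets. The closest were LOC544312 at 0.10, HSP21, a small heat-shock protein of the plastid, at 0.19, and LOC543802 at 0.20. In that order, their stress differences in PSARK::IPT were 0.08, 0.11 and 0.06, beside -0.16 for abz1. Their stress differences in WT were 1.22, 0.95 and 0.92, beside 1.36 for abz1. Between watered genotypes HSP21 and LOC543802 differed by -0.48 and -0.54 and LOC544312 by -0.16, where abz1 differed by -0.02. These profiles were picked for being alike, over 4 groups of the same 12 arrays, so their likeness is a description.

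**Figure D5:**
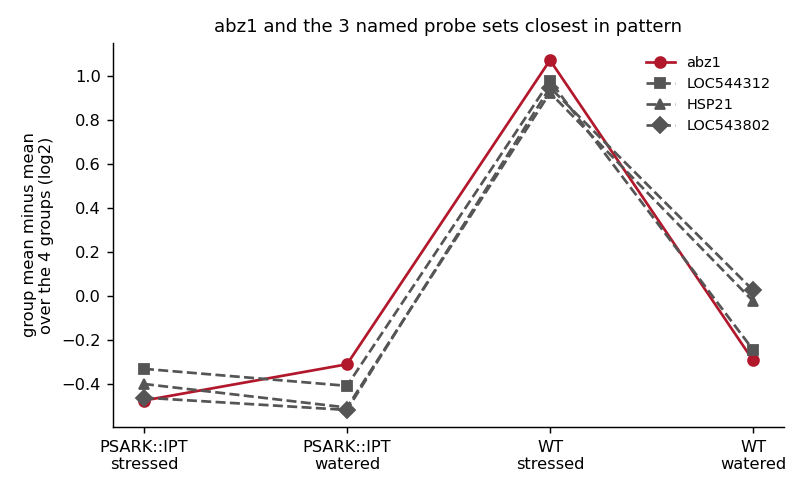
Group means of abz1 and of the 3 named probe sets with the closest profile, each centred on its own mean over the 4 groups, in log2 units. All 4 peak in stressed WT, abz1 at 1.07 above its mean and the others at 0.92 to 0.98.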

How the data were processed

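Per the labels' protocols, leaf RNA was extracted with Trizol and labelled by the standard Affymetrix procedure. Per the submitters' processing notes, RMA was the authors' route to the deposited log2 values. It subtracts background, brings arrays to 1 scale and merges the probes of each probe set; its version and settings are unknown here. That the scale is log2 follows from the range, 1.28 to 13.84. Without detection calls, how far a probe set stood above background is unknown.

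Control probe sets (108 of 10209) were left out, and dim ones kept. Group means over 12 arrays were fitted with limma 3.58.1 (lmFit, eBayes) in R 4.3.3, which left 8 residual degrees of freedom and added 7.99 from the prior. Tests were two-sided. Errors of differences are moderated standard errors. Differences called higher or lower have a Benjamini-Hochberg adjusted p under 0.05 over 10101 probe sets; of single arrays or groups of arrays these words only describe levels. The labels call the replicates biological. Gene names are those of a tomato annotation.

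The 5 genes and the lists of relatives were chosen with earlier results of these data known. Lists were filled by symbol pattern, every matching probe set counted. Named relatives are up to 3 per list and comparison with the smallest p that passed. ERF4 under stress in WT, DREB1, DREB2, ADH2, GLB2 and EIL1 were named after their values were seen. For a gene spanning at least 1 log2 unit the 3 closest named profiles were given. The procedure was tested on simulated data. Alternatives were median centring, quantile normalisation, array weights, a trended robust prior, a brightness filter, only the arrays compared, leaving out each array, a replicate block and poly-A covariates.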

Additional observations from a re-analysis of the deposited data

Results flagged for a closer look

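abz1 is listed here because the interaction term of the model, the difference of the stress effects, passed the threshold for it. The gene was chosen with this value known, so the term is a description and supports nothing. Stressed minus watered was -0.16 in PSARK::IPT and 1.36 in WT, and the effect in PSARK::IPT minus that in WT was -1.53 (SE 0.22), in limma. All 3 stressed WT arrays were above the other 9. The poly-A labelling controls differed between the same groups. With the 3′ minus 5′ difference of those controls as a covariate, the difference of the effects was -1.64 and still passed. Within groups that covariate varied mostly in stressed WT, so this fit is no general check of labelling. No single array of the 5 genes could be set apart from its group, as groups of 3 are too small for that.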

How the results depend on the processing

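The differences of the 5 genes were recomputed 520 times under the alternatives: 501 moved by less than the replicate SD and 19 by more. Of the differences that passed, 0 changed sign. In all, 7 calls were lost and 8 gained. A brightness filter, trended prior, replicate block, only the arrays compared, and leaving out an array of another group cannot move a difference. The 501 are therefore no measure of stability. With the poly-A covariate AREB1, CBF1, DREB3 and WRKY2 moved by more than the replicate SD for stress in WT. The abz1 differences ran from 1.29 to 1.57 for stress in WT, -1.67 to -1.47 between stressed genotypes and -1.66 to -1.37 for the difference of the stress effects. For stress in WT, 3 of the 5 genes (abz1, CBF1 and WRKY2) passed with only probe sets above the median brightness, against 1 in the main fit. With that filter 1345 of 5050 probe sets passed, against 1142 of 10101 without it. The CBF1 and WRKY2 differences were the same in both, at 0.48 and 0.43. With the poly-A difference over all poly-A probe sets as a covariate 0 of the 5 genes passed, and leaving out 1 array gave 1 to 2. Between stressed genotypes 1 passed with either covariate, against 3, and 2 to 4 without 1 array. For the difference of the stress effects 2 passed above the median brightness, against 1, and 1 to 2 without 1 array. Leaving out 1 array gave 0 for stress in PSARK::IPT and 1 between watered genotypes each time.

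Of 66 listed probe sets, 9 passed for stress in WT, 0 with either covariate and 3 to 8 without 1 array: 3 without watered WT replicate 2 or stressed WT replicate 3, and 5 without stressed WT replicate 2. For stress in PSARK::IPT 2 passed (GluB and PR-5, defence genes), 0 above the median brightness, 1 with only the arrays compared, 1 with each covariate and 1 to 2 without 1 array. Between watered genotypes 7 passed, 5 to 8 without 1 array; between stressed genotypes 11, and 8 to 11. For the difference of the stress effects 2 passed (PTI4 and GluB), 0 with each covariate and 0 to 3 without 1 array. Of all probe sets, 11.3% passed in the main fit for stress in WT and 1.36% for stress in PSARK::IPT. Between watered genotypes 13.8% of all passed, between stressed genotypes 16.7%, and for the difference of the stress effects 1.9%. No pairing by replicate number was seen: 0 of 18 same-numbered pairs had deviations correlated over 0.1 (-0.19 to 0.07). With groups of 3 this is no test of a shared batch. With a replicate block 1 listed probe set passed for the difference of the stress effects. No count changed without TGAS118, an alternative added after the data were seen, as was the covariate over all poly-A probe sets.

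Over all probe sets, 1142 passed for stress in WT, 694 with only the arrays compared, 59 and 40 with the covariates and 748 without stressed WT replicate 2. For stress in PSARK::IPT 137 passed, 64 and 56 with the covariates, 254 with array weights, 228 with a trended robust prior and 54 to 244 without 1 array. For the difference of the stress effects 192 passed, 300 above the median brightness, 332 with the trended robust prior and 120 and 105 with the covariates. Median centring changed the split of higher and lower from 569 and 573 to 454 and 667 for stress in WT, and from 778 and 618 to 606 and 743 between watered genotypes. Precision is limited by 3 arrays per group, and the causes of these changes were not tested.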

Other observations

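Other transcription factors and the defence genes on the array were counted beside all probe sets. Of 21 probe sets of other transcription factor families, 1 passed for stress in WT, against 11.3% of all probe sets. In the other comparisons 0 of the 21 passed, against 1.36% to 16.7% of all probe sets. EIL3, of the ethylene signalling pathway, was higher under stress in WT by 0.68 (SE 0.13, limma adjusted p = 0.0021). With the poly-A covariate it was 0.53 (SE 0.25) and did not pass. EIL1 differed by 0.71 and did not pass. Of 9 defence probe sets, GluB, a basic glucanase, was higher under stress in PSARK::IPT by 1.10 and higher in PSARK::IPT than in WT under stress by 1.51 (SE 0.17 each). PR-5, a thaumatin-like protein, was higher under stress in PSARK::IPT by 0.94, a call lost when any of 9 of the 12 arrays was left out and with the poly-A covariate, at 1.10 (SE 0.25). CHI9, a chitinase, was higher in PSARK::IPT than in WT under stress by 0.71. For stress in PSARK::IPT 2 of the 9 passed, against 1.36% of all probe sets, and between stressed genotypes 2, against 16.7%. For the difference of the stress effects GluB alone passed, at 1.08 (SE 0.24), against 1.9% of all probe sets. That call was lost when any of 6 of the 12 arrays was left out and with the poly-A covariate, at 1.23 (SE 0.30). For stress in WT and between watered genotypes 0 of the 9 passed, against 11.3% and 13.8%.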
